A study of Mus musculus with 10 samples.

Results

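The genes described here are 37 components of fibroblast growth factor (Fgf) and hedgehog signalling, out of 22238 protein-coding gene symbols. They comprise 18 secreted Fgf ligands, 3 intracellular Fgf proteins, 4 Fgf receptors, 3 Sprouty feedback inhibitors, 3 hedgehog ligands, the hedgehog receptor and transducer Ptch1 and Smo, 3 Gli transcription factors and the hedgehog-binding inhibitor Hhip. They were listed by name as a signalling family with peak calls from these same libraries in view, so their counts describe the family and are not evidence that it differs from other genes.

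The study mapped trimethylated lysine 27 of histone H3 (H3K27me3) and the protein Mtf2, also called Pcl2, in erythroid cells of the mouse fetal liver (FL). Mtf2 is an accessory subunit of polycomb repressive complex 2 (PRC2), which places H3K27me3. FL cells of e14.5 embryos on the C57Bl/6 background were sorted by the surface proteins CD71 and Ter119 into CD71+Ter119-/lo pro-erythroblasts and CD71+Ter119high erythroblasts. WT (Pcl2+/+) and Mtf2-null (Pcl2-/-) cells of each fraction gave an H3K27me3 and an IgG library, and WT cells also gave an Mtf2 library, 10 libraries in all with 1 per condition. The deletion, carried by a EUCOMM allele from C57Bl/6 ES cells passed through CD1 chimeras, is constitutive, so FL stroma lacked Mtf2 as well as blood cells. The number of embryos per library is not given, although the methods speak of replicates. With 1 library per condition no spread between replicates could be computed, no test was possible, and each count below describes these libraries.

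Fgf ligands bind receptor tyrosine kinases at the cell surface and start the Ras and MAP kinase cascade, which induces Sprouty proteins that dampen it. Hedgehog ligands bind Ptch1, which releases Smo and lets Gli proteins activate transcription, while Hhip binds the ligands and limits their reach. Both pathways pattern limb, gut and neural tube in the embryo, and many of their promoters are known polycomb targets in cells of other lineages.

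A peak was counted for a gene when it shared at least 1 base with the 5 kb on either side of any annotated transcription start site (TSS), or with the gene body. Each peak carries a tag count (the reads in it), a fold enrichment over the local IgG background, a score (10 times the negative log10 of the peak's p-value, so that the caller's cutoff lies at 50) and a false discovery rate (FDR) in percent, which the caller estimates by exchanging ChIP and IgG. The 6 lists held between 1407 and 28918 peaks and rested on between 15669899 and 67169672 unique tags. The WT H3K27me3 and Mtf2 lists of a fraction used the same IgG library. The lists measure no transcript, so neither the knockout nor the purity of the fractions could be checked from expression. Of 8 erythroid genes (Gata1, Klf1 and Epor among them), 0 had a peak of any list near a TSS or over the gene body. Of 11 genes of other blood or liver cells, Cebpa, Pax5, Ebf1 and Hnf4a had WT CD71+Ter119high H3K27me3 near a TSS and 0 had WT CD71+Ter119-/lo or Mtf2-null H3K27me3 there. Mtf2 lay near a TSS of Spi1 and Afp in CD71+Ter119-/lo cells and of 0 of the 11 in CD71+Ter119high cells.

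The DNA under 3 of the most enriched TSS peaks of the family is shown first, because it differs in CpG content from the DNA under the Mtf2 peak of highest enrichment. Each stretch is 300 bases of the plus strand of NCBIM37 (mm9), 5′ to 3′, outside annotated protein-coding exons and as near the summit as that allowed, with CpG dinucleotides in capitals. The first 3 lie upstream of a TSS under WT CD71+Ter119high H3K27me3 peaks and hold between 24 and 48 CpG. They are Fgf11 at chr11:69616244-69616543, Smo at chr6:29685390-29685689 and Fgf18 at chr11:33047454-33047753. The last lies at chr14:125067499-125067798 in an intron of Fgf14 under the WT CD71+Ter119high Mtf2 peak and holds 4 CpG. Smo is transcribed from the plus strand and the other 3 genes from the minus strand.
Fgf11: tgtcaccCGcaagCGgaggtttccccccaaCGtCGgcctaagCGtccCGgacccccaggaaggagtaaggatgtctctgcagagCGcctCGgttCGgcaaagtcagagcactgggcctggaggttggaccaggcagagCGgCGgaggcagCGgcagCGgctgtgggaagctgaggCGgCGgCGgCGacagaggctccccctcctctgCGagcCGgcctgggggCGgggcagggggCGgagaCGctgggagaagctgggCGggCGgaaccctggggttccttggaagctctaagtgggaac
Smo: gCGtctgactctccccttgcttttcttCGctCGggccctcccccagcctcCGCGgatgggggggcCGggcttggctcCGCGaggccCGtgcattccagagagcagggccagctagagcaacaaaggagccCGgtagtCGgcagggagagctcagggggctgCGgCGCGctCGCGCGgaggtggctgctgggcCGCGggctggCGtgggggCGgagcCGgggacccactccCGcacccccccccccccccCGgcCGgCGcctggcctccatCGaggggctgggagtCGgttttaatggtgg
Fgf18: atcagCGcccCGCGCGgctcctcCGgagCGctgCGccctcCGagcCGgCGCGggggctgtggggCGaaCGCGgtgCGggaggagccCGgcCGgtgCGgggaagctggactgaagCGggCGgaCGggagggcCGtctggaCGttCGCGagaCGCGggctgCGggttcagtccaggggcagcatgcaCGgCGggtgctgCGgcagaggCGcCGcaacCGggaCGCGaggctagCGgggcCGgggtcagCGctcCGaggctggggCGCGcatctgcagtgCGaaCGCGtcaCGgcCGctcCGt
Fgf14: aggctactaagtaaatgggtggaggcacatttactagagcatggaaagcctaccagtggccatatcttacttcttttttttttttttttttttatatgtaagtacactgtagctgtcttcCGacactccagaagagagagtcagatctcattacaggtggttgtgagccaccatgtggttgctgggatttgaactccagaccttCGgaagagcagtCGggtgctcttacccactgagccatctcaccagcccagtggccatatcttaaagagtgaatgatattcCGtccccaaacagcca

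In WT CD71+Ter119high erythroblasts, H3K27me3 lay near a TSS of 23 of the 37 genes (62.2%), beside 11.5% of all protein-coding genes. In Mtf2-null cells of the same fraction the count was 0 of 37, beside 1.64% of all genes. Among CD71+Ter119-/lo pro-erythroblasts, WT cells had it at 6 of 37 (16.2%), beside 3.3% of all genes, and Mtf2-null cells at 0 of 37, beside 1.28%. Thus H3K27me3 was called in WT and not in Mtf2-null near a TSS of all 23 genes in CD71+Ter119high cells, beside 11.4% of all genes, and of all 6 in CD71+Ter119-/lo cells, beside 3.12%. Among all genes with a WT peak, 98.8% and 94.7% also had none in Mtf2-null cells of the CD71+Ter119high and CD71+Ter119-/lo fractions, so the family genes behaved as nearly every marked gene did.

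**Figure D1:**
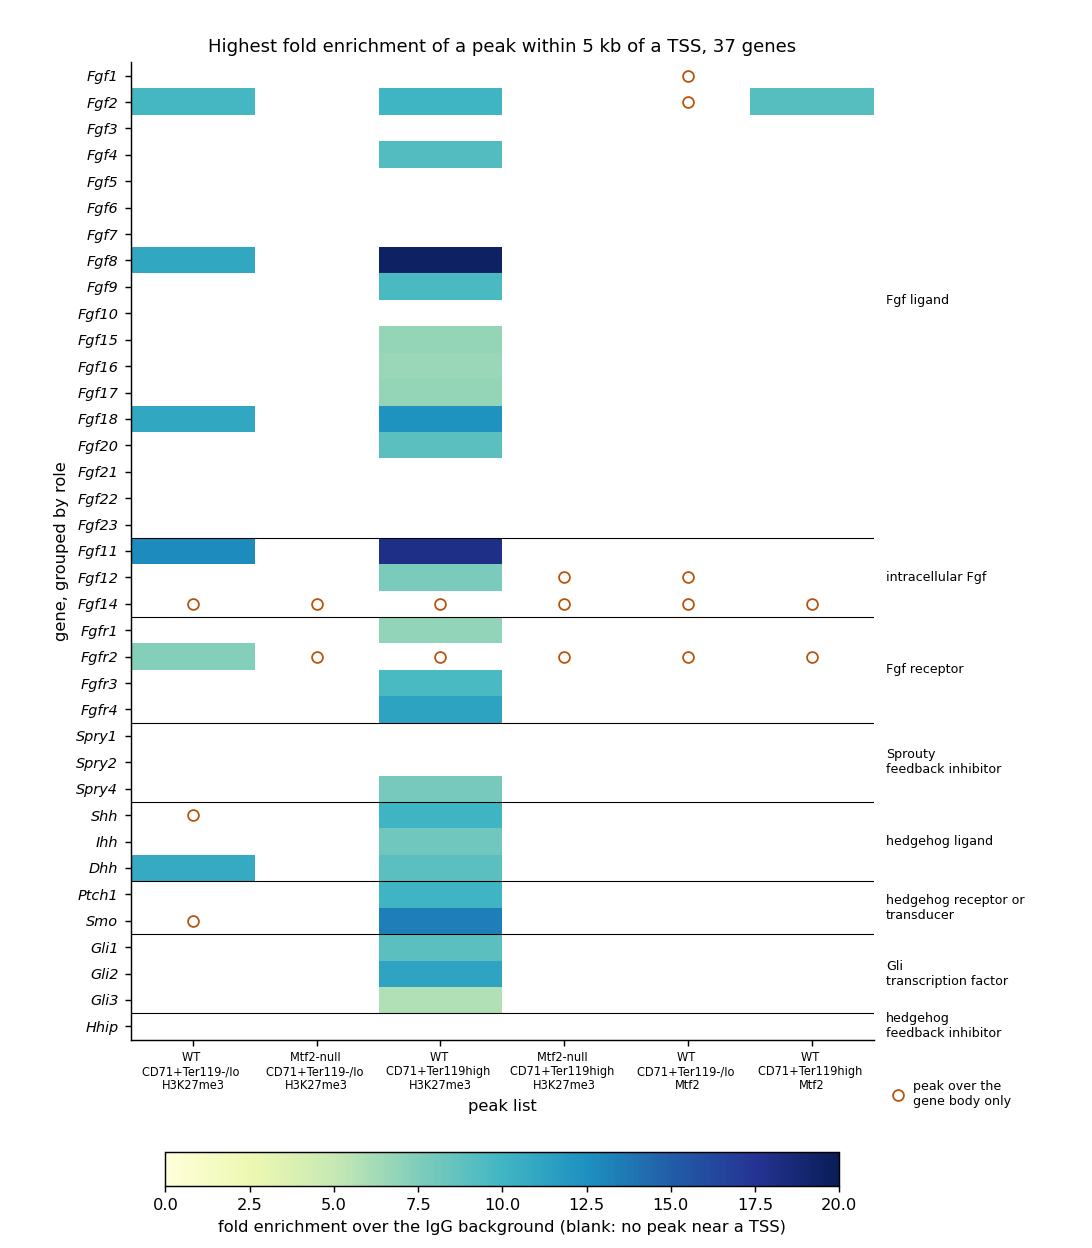
Highest fold enrichment over IgG of a peak within 5 kb of a TSS for each of the 37 genes (rows, grouped by role) in each of the 6 peak lists (columns), on a colour scale from 0 to 20. Open circles mark genes with a peak over the gene body and none near a TSS, and the column of WT CD71+Ter119high H3K27me3 is filled for 23 genes while both Mtf2-null columns hold no filled cell.

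Mtf2 itself was rarely called at these TSS. In CD71+Ter119-/lo cells 0 of 37 genes had an Mtf2 peak near a TSS, beside 8.46% of all genes, and in CD71+Ter119high cells 1 of 37 had one (2.70%), beside 1.51%. None of the 32 WT CD71+Ter119high H3K27me3 peaks near a family TSS overlapped an Mtf2 peak of either fraction. Among all 2881 such peaks near any TSS, 0.451% overlapped an Mtf2 peak of CD71+Ter119-/lo cells and 0.139% one of CD71+Ter119high cells, so 0 is close to the background there. Of the 10 WT CD71+Ter119-/lo H3K27me3 peaks near a family TSS, 0 overlapped an Mtf2 peak of the same fraction, beside 20.5% of the 723 near any TSS. Both Mtf2 libraries had a low share of unique tags, 34.6% in CD71+Ter119-/lo and 39.7% in CD71+Ter119high cells, against at least 78.4% in the H3K27me3 libraries, and the part of this in the counts was not tested.

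**Figure D2:**
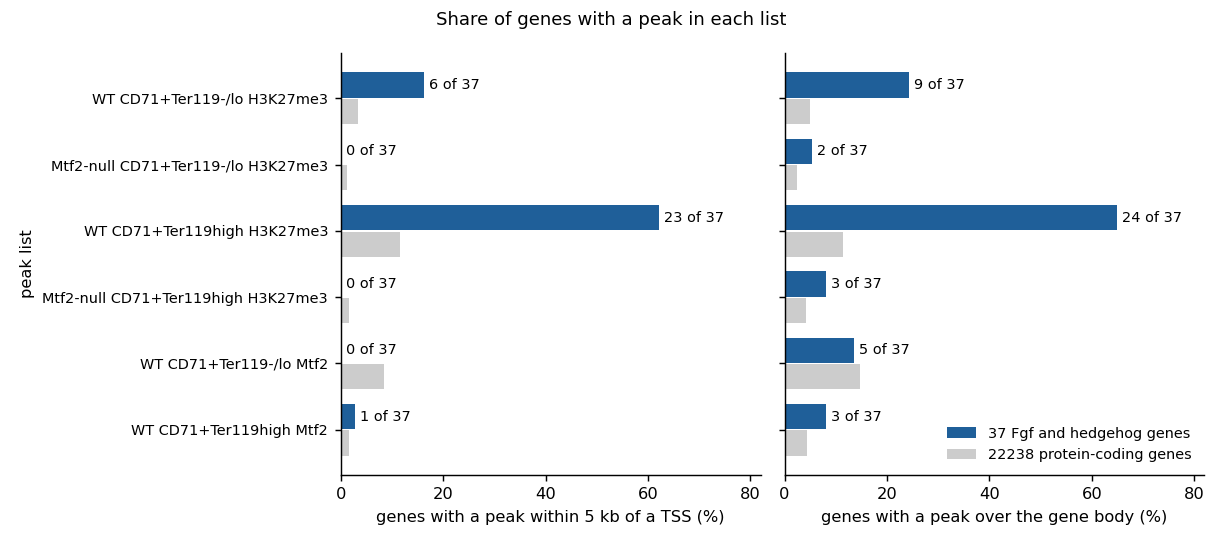
Percent of genes (horizontal axis) that carry a peak at most 5 kb from a TSS (left) or over the gene body (right) in each list, for the 37 family genes (blue) and all 22238 protein-coding genes (grey). The blue bar stands above the grey one in the WT H3K27me3 lists, at 62.2% against 11.5% near a TSS in CD71+Ter119high cells, and below it for Mtf2 near a TSS in CD71+Ter119-/lo cells, at 0% against 8.46%.

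Among the Fgf ligands, 9 of 18 had WT CD71+Ter119high H3K27me3 near a TSS. Fgf8, which patterns the midbrain, face and limb, had the most enriched peak of the family near a TSS, with 167 tags (95% Poisson interval 143 to 194, covering counting error only), a fold enrichment of 19.5 and a score of 530.5. It ranked 39 by fold enrichment and 36 by score among 4490 peaks, and its summit lay 4 bp upstream of the TSS. A second Fgf8 peak of 56 tags and 5.13-fold enrichment, the least enriched of the family near a TSS, lay with its summit 2936 bp upstream. A TSS of Npm3 also lies within 5 kb of that second peak. Fgf18, a ligand of bone and cartilage growth in the same subfamily, had 1 peak of 100 tags, 12.3-fold enrichment and a score of 319.0 with its summit 204 bp upstream. Fgf17, the remaining gene of that subfamily, carried the lowest score near a family TSS in this list, 50.5 with 22 tags and an FDR of 33.2%. The Fgf8 subfamily thus spanned the range of scores near a family TSS, from highest to lowest.

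Fgf2, a broadly acting mitogen, had 69 tags at 10.1-fold, with the summit in an exon 62 bp downstream of a TSS. A further Fgf2 peak outside the window, of 40 tags at 15.4-fold with an FDR of 8.38%, had its summit in an intron 8842 bp downstream. Fgf9, a ligand of lung and gonad development, had peaks of 83 and 45 tags at 7.70- and 9.63-fold beside different TSS. Fgf20, its close relative, had 25 tags at 8.93-fold, with an FDR of 26.9%. Fgf16, also of the Fgf9 subfamily, had 39 tags at 6.62-fold, so all 3 genes of that subfamily were marked and none of them reached the enrichment of Fgf18. Of these 3 genes, only Fgf9 had such a peak with an FDR of at most 5%.

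Fgf3, Fgf4 and Fgf15 lie in a row on chromosome 7, with 16.9 kb between Fgf3 and Fgf4 and 31.3 kb between Fgf4 and Fgf15. Fgf4, a ligand of the early embryo, had peaks of 63 and 26 tags at 9.24- and 7.86-fold on either side of its TSS. Fgf15, an endocrine ligand made by the gut, had 44 tags at 6.74-fold. No peak of any list lay within 5 kb of a TSS of Fgf3, a ligand of inner ear development, although its TSS is CpG-rich. A further WT CD71+Ter119high H3K27me3 peak of 27 tags lay 20.5 kb downstream of the Fgf4 TSS, between Fgf4 and Fgf15. The mark therefore covered 2 of 3 neighbouring ligand genes.

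The other 9 ligands had no WT CD71+Ter119high H3K27me3 near a TSS. They were Fgf1, Fgf3, Fgf5, Fgf6, Fgf7, Fgf10, Fgf21, Fgf22 and Fgf23. Fgf21 and Fgf23 are endocrine ligands of metabolism and phosphate balance, and Fgf7 and Fgf10 signal from mesenchyme to epithelium. Fgf6 and Fgf23, neighbours 48.2 kb apart on chromosome 6, both lacked it. Only Fgf1 of the 9 had a peak over its gene body in any list, an intronic Mtf2 peak of CD71+Ter119-/lo cells with 43 tags at 13.5-fold and its summit 15.5 kb downstream of the nearest TSS.

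The 3 intracellular Fgf proteins bind voltage-gated sodium channels and are not secreted. Fgf11 had the most H3K27me3 peaks of the family near a TSS, 4 in WT CD71+Ter119high cells, holding 126, 72, 59 and 26 tags. The strongest, at chr11:69614725-69617144, had a 17.97-fold enrichment and a score of 427.5, ranking 78 by fold enrichment, with its summit 1035 bp upstream of the nearest TSS. Another protein-coding gene, Tmem102 or Chrnb1, has a TSS within 5 kb of each of the 4, so they cannot be given to Fgf11 alone. Fgf12 had 1 peak of 47 tags at 7.70-fold with its summit 1233 bp upstream, and Fgf14 had none near a TSS.

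Of the 4 Fgf receptors, Fgfr1, Fgfr3 and Fgfr4 had WT CD71+Ter119high H3K27me3 near a TSS. Fgfr3, which restrains bone growth, had 138 tags at 9.63-fold with its summit 28 bp downstream of a TSS. Fgfr1, the most widely used receptor in the embryo, had 100 tags at 6.85-fold. Fgfr4, a receptor of liver and muscle, had 39 tags at 11.3-fold. Tag counts and fold enrichments thus ranked these receptors differently.

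Fgfr2, the receptor for epithelial Fgf signals, was the exception among the receptors. It had no CD71+Ter119high H3K27me3 near a TSS and a weak peak in WT CD71+Ter119-/lo cells, 17 tags at 7.31-fold with its summit 49 bp upstream. Its annotated gene body spans 3009 kb because of 1 of its 29 transcripts, and that span takes in 31 other protein-coding genes, Hmx2 and Hmx3 among them. The other transcripts span 104 kb, at chr7:137306026-137410322. As annotated, Fgfr2 held 13 peaks of WT CD71+Ter119high H3K27me3 and 20 of CD71+Ter119-/lo Mtf2, and without the long transcript it held 0 of either. Each gene-body call of Fgfr2 named below rests on that transcript, except the CD71+Ter119-/lo H3K27me3 peak at its TSS.

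The feedback inhibitors carried few calls. Spry4 was the only 1 of 3 Sprouty genes with WT CD71+Ter119high H3K27me3 near a TSS, and its peak was the smallest there, 21 tags at 7.86-fold with a score of 51.9 and an FDR of 32.1%. A TSS of Arhgap26 also lies within 5 kb of it. Spry1, Spry2 and Hhip had no peak of any list near a TSS or over the gene body. In all, 1 of 4 feedback inhibitors of both pathways was marked in this list, beside 12 of 21 ligands and 5 of 6 receptors and transducers. Ptch1, which was marked, was counted as a receptor although it also holds back Smo. With groups this small and members chosen with results known, the counts are given as a description.

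Of the 9 hedgehog genes, 8 had WT CD71+Ter119high H3K27me3 near a TSS, beside 15 of the 28 Fgf genes. Of the 8 hedgehog genes, only Ihh, Dhh, Ptch1, Smo and Gli3 had such a peak with an FDR of at most 5%. All 3 ligands were marked. Dhh, the ligand of testis and nerve sheath, had 3 peaks of 120, 50 and 54 tags spread from its last exon to 1164 bp upstream of the TSS. Ihh, the ligand of bone and gut, had 94 tags at 8.07-fold with its summit 21 bp upstream. Shh, the ligand of limb and neural tube, had 36 tags at 10.1-fold with its summit 2620 bp downstream of the TSS, in an intron. The FDR of this Shh peak was 10.9%. Shh was therefore marked less centrally than Ihh.

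Downstream of the ligands, Smo had the most enriched hedgehog peak near a TSS, at chr6:29685048-29687001. It held 97 tags at 13.4-fold with a score of 320.0 and its summit 154 bp upstream. Ptch1 had peaks of 124 and 26 tags at 7.95- and 10.1-fold, the larger with its summit 525 bp upstream. The Gli genes, which carry the signal to the genome, were marked with 53 tags at 8.94-fold for Gli1, 29 tags at 11.2-fold for Gli2 and 91 tags at 5.78-fold for Gli3. Their FDRs were 5.06% for Gli1, 23.1% for Gli2 and 4.79% for Gli3. A further Gli2 peak of 32 tags and 14.6-fold enrichment lay in an intron, 31.1 kb upstream of the nearest annotated TSS. The median of each gene's most enriched TSS peak was 9.55-fold over the hedgehog genes and 9.24-fold over the Fgf genes.

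Over the whole family, the 32 WT CD71+Ter119high peaks near a TSS had a median fold enrichment of 8.96 and a median score of 107.8. The 2881 peaks of the list near any TSS had medians of 8.56 and 84.2, and the family range of 5.13- to 19.5-fold lay within that of the list. The summit lay within 1 kb of a TSS for 21 of the 32 (65.6%), at a median distance of 467 bp, with 15 upstream and 17 downstream. Another protein-coding gene had a TSS within 5 kb of 6 of the 32 peaks, 4 of them at Fgf11. An FDR of at most 5% was reached by 53.1% of the 32 peaks, beside 40.3% of all peaks near a TSS, and a score of at least 100 by 56.3%, beside 40.7%. Such peaks lay at 13 and 14 of the 23 genes. The 13 at an FDR of at most 5% were Fgf2, Fgf4, Fgf8, Fgf9, Fgf18, Fgf11, Fgfr1, Fgfr3, Ihh, Dhh, Ptch1, Smo and Gli3. The score limit also kept Gli1.

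**Figure D3:**
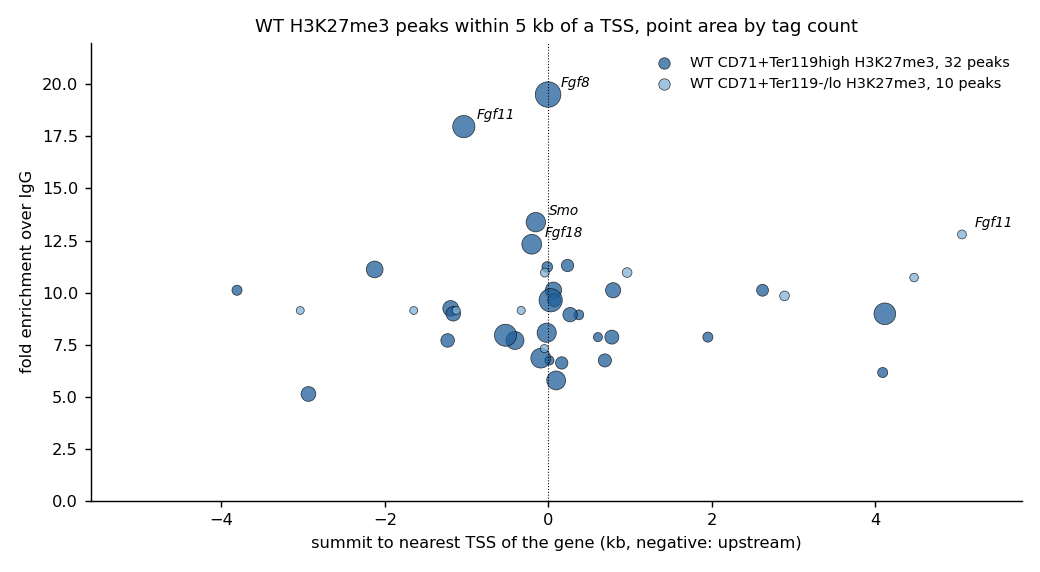
Fold enrichment over IgG (vertical axis) against the distance from summit to the nearest TSS of the gene in kb (horizontal axis) for the 32 WT CD71+Ter119high (dark) and 10 WT CD71+Ter119-/lo (light) H3K27me3 peaks near a family TSS, with point area proportional to tags. Fgf8 at 19.5-fold and Fgf11 at 17.97-fold stand above the others, and the light points are small, with 16 to 24 tags each.

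The WT CD71+Ter119-/lo list held H3K27me3 near a TSS of Fgf2, Fgf8, Fgf18, Fgf11, Fgfr2 and Dhh. All but Fgfr2 also had it in CD71+Ter119high cells, which is 5 of 37 in both fractions (13.5%), beside 1.68% of all genes, and 5 of 6 (83.3%), beside 50.9% of all genes with a WT CD71+Ter119-/lo peak. The 4 Fgf8 peaks of CD71+Ter119-/lo cells held 24, 17, 17 and 16 tags, and each overlapped an Fgf8 peak of CD71+Ter119high cells. Fgf18 had 20 tags at 11.0-fold within the CD71+Ter119high peak, and Dhh had 19 tags at 10.7-fold in a peak overlapping its own. Of the 10 peaks, 7 overlapped a CD71+Ter119high peak, beside 31.4% of CD71+Ter119-/lo peaks near any TSS. At Fgf2 the call was at another place, with the CD71+Ter119-/lo summit in an intron 2889 bp downstream of the nearest TSS. Another protein-coding gene had a TSS within 5 kb of 4 of the 10 peaks, Npm3 at Fgf8 and Chrnb1 or Tmem102 at Fgf11. All 10 were weak calls, with scores from 50.04 to 72.6, and 0 had an FDR of at most 5%. The CD71+Ter119-/lo library had 18945784 unique tags against 30054186 in CD71+Ter119high cells, and the list held only 1 peak with an FDR of at most 5%, and the part of depth in the difference between the fractions was not tested.

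Over gene bodies, WT CD71+Ter119-/lo H3K27me3 was called at 9 of 37 genes (24.3%), beside 5.04% of all genes. This added Fgf14, Shh and Smo, each with 1 peak of 17 tags. The Shh peak lay over an exon 8695 bp downstream of its TSS and was 12.8-fold enriched. In WT CD71+Ter119high cells the count was 24 of 37 (64.9%), beside 11.5% of all genes. Fgfr2 is among the 24, and without its longest transcript the count was 23.

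Depth and the reach of each list were set beside the calls in Mtf2-null cells. The Mtf2-null libraries held 37026535 and 67169672 unique tags in CD71+Ter119-/lo and CD71+Ter119high cells, more than the WT libraries of each fraction. IgG libraries held 39667267 unique tags in Mtf2-null and 16898992 in WT CD71+Ter119-/lo cells. In CD71+Ter119high cells the IgG libraries held 20646036 in Mtf2-null and 12345800 in WT. The Mtf2-null CD71+Ter119high list reached down to a fold enrichment of 2.91, below the 5.13 of the least enriched WT peak near a family TSS. The Mtf2-null CD71+Ter119-/lo list reached down to 3.65, below the 7.31 of the least enriched WT peak near a family TSS in that fraction. These lowest values come from anywhere in a list and are not the caller's limit at a family TSS. Every peak of the Mtf2-null CD71+Ter119-/lo list had an FDR of 100%. The part of depth and local background in the missing calls was not tested. No WT peak near a family TSS overlapped an Mtf2-null peak of its own fraction, beside 0.208% of WT peaks near any TSS in CD71+Ter119high and 1.11% in CD71+Ter119-/lo cells, so 0 is close to the background. The deposited lists hold no tag counts at places without a call, so a remaining signal below the caller's limit was not measurable.

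Mtf2-null H3K27me3 was called only over gene bodies, at 3 of 37 genes in CD71+Ter119high cells (8.11%), beside 4.25% of all genes, and at 2 of 37 in CD71+Ter119-/lo cells (5.41%), beside 2.38%. Fgf12 had 2 Mtf2-null CD71+Ter119high peaks in its introns, of 167 and 81 tags at 7.71- and 5.18-fold, 226.3 and 98.2 kb downstream of the nearest TSS. Fgf14 had 2 in its introns, of 49 and 82 tags at 6.86- and 4.58-fold. In CD71+Ter119-/lo cells Fgf14 had 1 of 44 tags and 21.4-fold enrichment, ranking 7 by fold enrichment of 1407 peaks, with an FDR of 100% as every peak of that list has. The remaining calls were those inside the long Fgfr2 transcript. None of the Fgf12 or Fgf14 peaks overlapped a WT H3K27me3 peak, and 1 of each gene overlapped an Mtf2 peak of WT CD71+Ter119-/lo cells.

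Mtf2 peaks over gene bodies were found at 5 of 37 genes in CD71+Ter119-/lo cells (13.5%), beside 14.8% of all genes, and at 3 of 37 in CD71+Ter119high cells (8.11%), beside 4.4%. The share in the first fraction was close to the background. Fgfr2 is in both counts, and without its longest transcript they were 4 in CD71+Ter119-/lo and 2 in CD71+Ter119high cells. Fgf12 carried 5 peaks of CD71+Ter119-/lo Mtf2, all intronic. The strongest of these held 171 tags at 19.95-fold with a score of 572.6 and lay 105.5 kb downstream of the nearest TSS, over DNA that met the CpG island criteria. Fgf2 had 2 CD71+Ter119-/lo peaks of 45 and 28 tags, which overlapped the CD71+Ter119-/lo H3K27me3 peak of 18 tags there, in an intron. Fgf2 also had 2 CD71+Ter119high Mtf2 peaks of 15 and 18 tags, and the latter, at 9.07-fold, was the single Mtf2 call near a family TSS. It lay 2867 bp upstream of an internal TSS, and counting only the most 5′ TSS of each gene left 0 of 37.

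Fgf14, whose gene of 699 kb is the longest of the family after Fgfr2, carried the Mtf2 peak of highest fold enrichment in CD71+Ter119high cells. The peak lies at chr14:125067207-125068107, 8.70 kb downstream of the upstream TSS and 475.5 kb upstream of the other. It held 38 tags (95% Poisson interval 26.9 to 52.2) at a fold enrichment of 59.8, while the next highest in the list was 35.1 and the median 10.2. By score, 176.9, it ranked 24, and by tags it ranked 1176 of 5309 peaks. Its FDR was 33.3%, and 23 peaks (0.433% of the list) had an FDR as high or higher. The peak was thus first by fold enrichment and not by score or tags.

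In CD71+Ter119-/lo cells an Mtf2 peak began at the same base and held 52 tags (95% Poisson interval 38.8 to 68.2) at 12.7-fold, ranking 5103 by fold enrichment of 28918 peaks. No H3K27me3 peak of either genotype overlapped it. A run of 20 T lies within the peak, starting 77 bp before the summit, and a repeat of 23 TG units ends 20 bases before its first base. Of 5309 CD71+Ter119high Mtf2 summits, 1.34% had a run of 20 A or 20 T within the surrounding 1 kb and 1.41% had 10 TG or CA units in a row. The part of either in the peak was not tested. Only these kinds of repeat were searched for, so whether the summit lies in an interspersed repeat was not tested. No Mtf2 library from Mtf2-null cells was analysed here, so the antibody's own background at this place was not measured.

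Elsewhere over Fgf14, CD71+Ter119-/lo Mtf2 had 11 more peaks, all intronic, with fold enrichments from 6.55 to 17.7. WT H3K27me3 had 1 peak in each fraction, of 17 tags at 9.80-fold in CD71+Ter119-/lo and 22 tags at 6.74-fold in CD71+Ter119high cells. Neither was near a TSS nor overlapped an Mtf2 peak. Upstream of the gene, the CD71+Ter119high Mtf2 peak at chr14:125085329-125089460 ranked 4 by score in its list and held 118 tags at 10.4-fold with an FDR of 100% and its summit 12.8 kb before the TSS, inside a CD71+Ter119-/lo Mtf2 peak of 453 tags. Fgf14 thus had called regions in all 6 lists and none within 5 kb of a TSS. Fgfr2 as annotated, the only longer gene of the family, also had calls in all 6 lists, and the part of gene length was not tested.

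**Figure D4:**
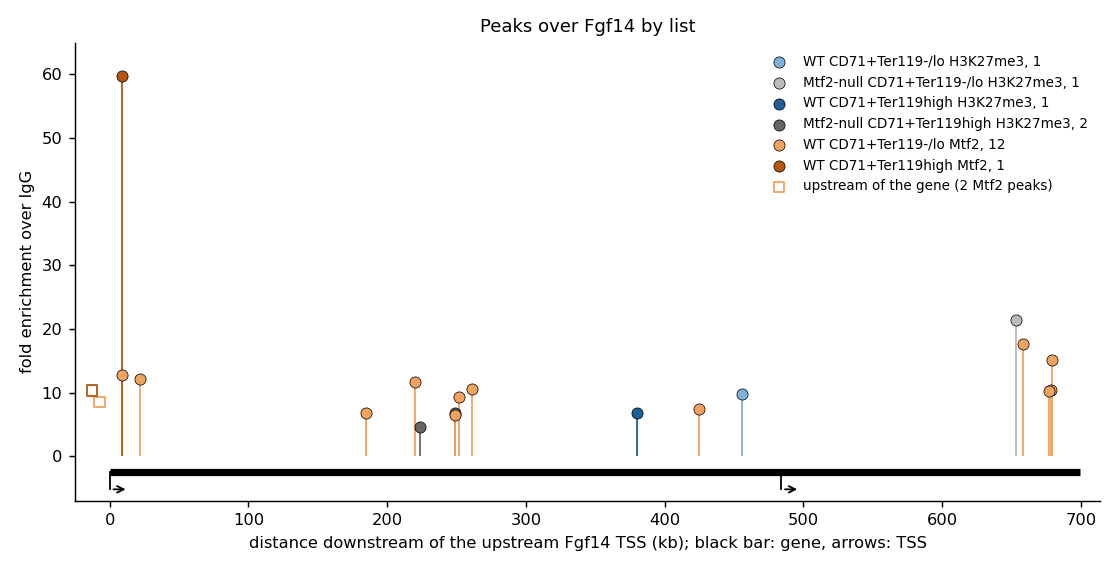
Fold enrichment over IgG (vertical axis) of every peak over Fgf14 against its distance downstream of the upstream TSS in kb (horizontal axis), coloured by list, with the number of peaks in the key and the gene and its TSS drawn beneath. The CD71+Ter119high Mtf2 peak stands at 59.8-fold and 8.70 kb, and every other peak drawn lies at or below 21.4-fold.

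The sequence at the TSS was compared with the calls using the GC content and the ratio of observed to expected CpG in 1 kb around the most CpG-rich TSS of each gene, with at least 50% GC and a ratio of at least 0.6 called CpG island-like. Of the 23 family genes with such a TSS, 18 (78.3%) had WT CD71+Ter119high H3K27me3 near a TSS, and of the 14 without it 5 had (35.7%). Over all protein-coding genes the shares were 18.8% of 10907 and 4.60% of 11318. The 5 marked without it were Fgf17, Fgf11, Shh, Dhh and Gli1. Fgf11, Shh and Dhh each had 1 such peak whose summit, over 1 kb from the TSS, lay in DNA meeting the same criteria, with CpG ratios of 0.73, 0.80 and 0.90. The 5 unmarked with it were Fgf3, Fgf5, Fgfr2, Spry1 and Spry2, of which Spry1 had the highest CpG ratio of the family, 1.02 at 63.1% GC. Around the summit of the Fgf14 Mtf2 peak GC content was 35.1% with a CpG ratio of 0.23, where the medians over the summits of its list were 42.9% and 0.22, and the Fgf14 TSS itself had 45.3% and 0.49. A median of 62.1% GC and a ratio of 0.66 lay under the 32 WT CD71+Ter119high family peaks. Of these 32 summits, 19 lay in DNA that met the CpG island-like criteria. Fgf4, Fgf20 and Ptch1 were marked and had a CpG island-like TSS, but none of their summits near a TSS met the criteria.

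**Figure D5:**
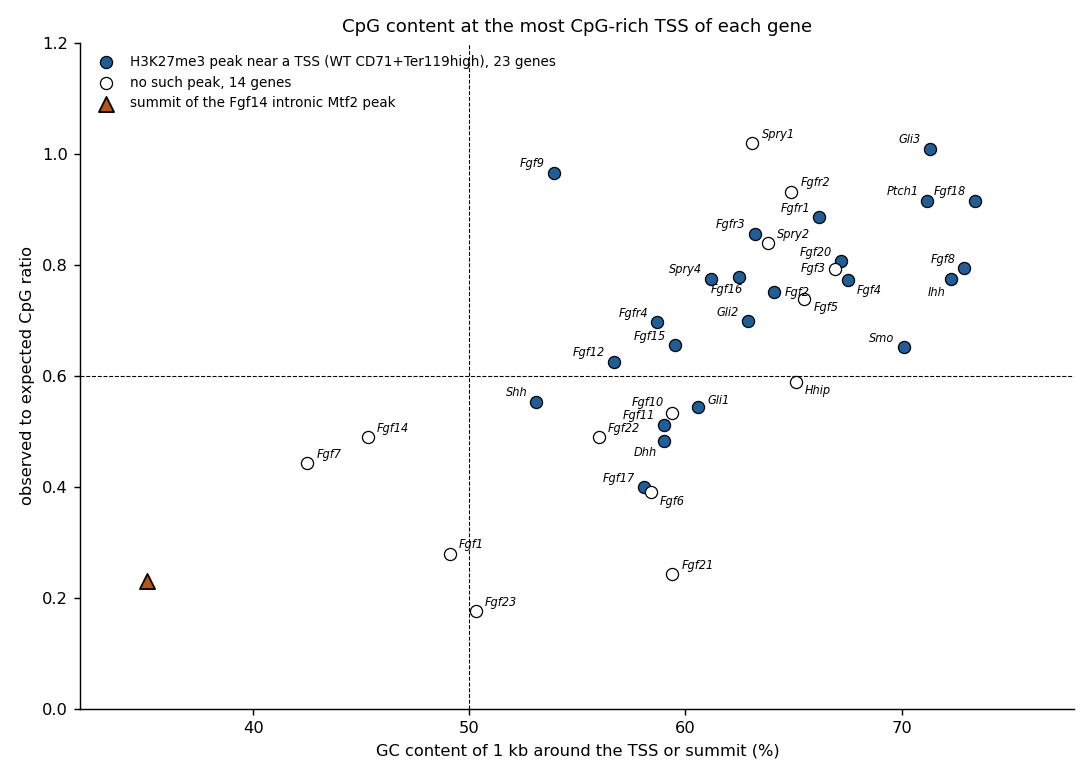
Ratio of observed to expected CpG (vertical axis) against GC content in percent (horizontal axis) in 1 kb around the most CpG-rich TSS of each of the 37 genes, filled where WT CD71+Ter119high H3K27me3 was called near a TSS, with dashed lines at 50% and 0.6. The area above both lines holds 18 filled and 5 open points, and the triangle marks the Fgf14 intronic Mtf2 summit at 35.1% GC.

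Other genes of both pathways were counted from a list of 41 receptors, adaptors, inhibitors and effectors, of which 39 were matched in the annotation. WT CD71+Ter119high H3K27me3 lay near a TSS of 8 of the 39, beside 11.5% of all genes, among them Fgfbp1, Scube1, Spred3, Scube3, Etv4, Cdon and Gab1. Their most enriched peaks ran from 4.67-fold at Gab1, an adaptor of receptor tyrosine kinases, to 15.7-fold at Fgfbp1, a carrier of secreted Fgf. Cdon, a hedgehog co-receptor, had 85 tags at 5.71-fold. Among feedback inhibitors of this list, Spred3 was marked near a TSS and Spred1, Spred2, Dusp6 and Il17rd were not. A TSS of Ggn lies within 5 kb of each Spred3 peak, so they cannot be given to Spred3 alone. Il17rd had WT CD71+Ter119high H3K27me3 over its gene body only, the nearer summit 5370 bp upstream of a TSS. In WT CD71+Ter119-/lo cells 4 of 39 were marked, beside 3.3% of all genes. In Mtf2-null cells 0 of 39 were in CD71+Ter119-/lo, beside 1.28%, and 1 of 39 in CD71+Ter119high, beside 1.64%. That one was Etv4, an effector of Fgf signalling, where the Mtf2-null peak of 52 tags had its summit 4661 bp upstream, away from the WT peak of 87 tags at the TSS. Near a TSS, Mtf2 was called at Stk36 alone in CD71+Ter119-/lo cells, beside 8.46% of all genes, and at 0 of 39 in CD71+Ter119high cells, beside 1.51%. A TSS of Rnf25 also lies within 5 kb of that Stk36 peak, whose summit lay 4595 bp downstream of the nearest Stk36 TSS.

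The window of 5 kb set which calls counted. Just inside it were the CD71+Ter119-/lo Fgf11 peak, whose summit lay 5060 bp downstream of the nearest TSS with its edge inside the window, and the Dhh peaks at 4474 and 4116 bp. Just outside it were the CD71+Ter119high H3K27me3 peaks at the 3′ end of Fgf17, 6191 bp downstream, and in Fgf2 at 8842 bp. The Fgf2 Mtf2 peak at 7698 bp and the Fgf14 Mtf2 peak at 8700 bp also lay outside it. The lists end at the caller's cutoff, a p-value of 1e-05, so no value below it can be given.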

How the data were processed

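FL cells of both genotypes and both fractions gave 6 ChIP and 4 IgG libraries. The authors aligned reads to mm9 with Bowtie2 2.2.3 and called peaks with MACS 1.3.7 against the IgG of the same genotype and fraction. Per the file headers the p-value cutoff was 1e-05, the model fold 32, the band width 300 bp and the tag size 25 bp, with local backgrounds over 1, 5 and 10 kb. The alignment names in the headers carry the words masked and encBL, which are not explained. Deposited tag counts are reads per peak, not scaled for depth. The deposited fold is the authors' ratio of ChIP to background, the deposited score is 10 times the negative log10 of p, and the deposited FDR is in percent. A deeper library reaches the cutoff at lower enrichment. The design text opens with H3K4me3, while the sample labels and methods name H3K27me3, the name used here. The sources do not say whether the stated replicates were pooled.

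Genes and TSS were those of GENCODE M1 on NCBIM37, the assembly of mm9, with 22380 records merged into 22238 symbols and 1 symbol matched by an older name. Coordinates are 1-based, distances run from summit to nearest TSS of the gene, and ranks start at the highest value. The steps that place peaks were checked on made-up intervals with known answers. The 37 genes, the other lists and the naming rule were chosen with earlier results of these data known. The rule gives values for genes with WT CD71+Ter119high H3K27me3 near a TSS, any Mtf2 peak or any Mtf2-null peak, and names the rest. The sequence of 1 family peak and the values of 1 other pathway gene are not reported here. Alternatives were higher limits (score 100, FDR 5%), a window of 1 kb, stricter placement (the summit or 50% of the peak), lists cut to equal length, the most 5′ TSS and other rankings. Tables came from Python 3.11.15 with pandas 2.3.3, sequences from pysam 0.24.0, Poisson intervals from scipy 1.17.1, and arrays and figures from numpy 2.4.6 and matplotlib 3.10.9.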

Additional observations from a re-analysis of the deposited data

How the results depend on the processing

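With 1 library per condition, statements rest on single lists and on a caller's cutoff. No paired analysis was possible because the labels carry no replicate numbers. Of 102 alternative counts and ranks, 69 stayed within 1.5 times the reported value and 33 did not. Every count stayed so with the summit, or 50% of the peak, required inside the window or gene body. The counts of 0 near a TSS in Mtf2-null cells and for Mtf2 in CD71+Ter119-/lo cells are among the former, but each alternative removes peaks or narrows the place counted, so they could not rise and were not tested by it. The counts in WT and absent from Mtf2-null equal the WT counts near a TSS, because Mtf2-null had 0, so the tally repeats them. Every peak of the Mtf2-null CD71+Ter119high H3K27me3 and CD71+Ter119-/lo Mtf2 lists passed the FDR limit, so that limit could not change their counts.

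At a score of at least 100, H3K27me3 near a TSS in WT CD71+Ter119high cells, and its absence from Mtf2-null, covered 14 genes in place of 23, and 13 at an FDR of at most 5%. Gene-body counts there were 15 and 14 in place of 24. For WT CD71+Ter119-/lo H3K27me3 both limits left 0 genes near a TSS in place of 6 and 0 over gene bodies in place of 9. They left 0 in place of 2 for Mtf2-null CD71+Ter119-/lo gene bodies, and 0 in place of 1 for CD71+Ter119high Mtf2 near a TSS. CD71+Ter119high Mtf2 gene bodies gave 1 and 0 in place of 3, and the score limit gave 0 in place of 3 for Mtf2-null CD71+Ter119high gene bodies. The FDR limit could only give 0 for CD71+Ter119high Mtf2, whose lowest FDR was 6.94%, and for Mtf2-null CD71+Ter119-/lo, where every FDR was 100%. With the 1407 highest-scoring peaks of every list, WT CD71+Ter119-/lo H3K27me3 gave 2 near a TSS, also as the count absent from Mtf2-null, and 3 over gene bodies. WT CD71+Ter119high H3K27me3 then gave 16 in place of 23 near a TSS and 16 in place of 24 over gene bodies. The same setting gave 1 for Mtf2-null CD71+Ter119high gene bodies, 2 in place of 5 for CD71+Ter119-/lo Mtf2 gene bodies, and 0 near a TSS and 1 over gene bodies for CD71+Ter119high Mtf2. A 1 kb window gave 3 for WT CD71+Ter119-/lo H3K27me3, also as the count absent from Mtf2-null, and 0 for CD71+Ter119high Mtf2, as did the most 5′ TSS. Leaving out the longest Fgfr2 transcript, chosen after seeing the data, gave 1 for Mtf2-null CD71+Ter119-/lo gene bodies. The Fgf14 peak ranked 24 by score and 1176 by tags. The cause was not tested for the limits on score and FDR, which by construction keep fewer peaks.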

Other observations

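Beyond the 5 kb window and outside the gene bodies, peaks within 50 kb of a family TSS were most numerous for CD71+Ter119-/lo Mtf2, with 36 gene and peak pairs at 18 of 37 genes (48.6%), beside 44.9% of all protein-coding genes. Shh had 8 of them on both sides of the gene, with fold enrichments from 5.18 to 11.6. Fgf5, a ligand of the hair cycle with no peak inside the window, had a CD71+Ter119-/lo Mtf2 peak of 347 tags at 13.6-fold and a score of 1057, ranking 95 by score, 43.3 kb upstream of its TSS. It overlapped 2 CD71+Ter119high Mtf2 peaks of 31 and 23 tags and 3 WT CD71+Ter119-/lo H3K27me3 peaks of 30, 16 and 18 tags. Fgf9 had a like peak of 387 tags at 10.6-fold with its summit 16.9 kb upstream, overlapping a WT CD71+Ter119-/lo H3K27me3 peak of 36 tags and a CD71+Ter119high Mtf2 peak of 19 tags. WT CD71+Ter119-/lo H3K27me3 also overlapped such Mtf2 peaks near Fgf7, Ihh and Gli1. Gli3 had 1 of 394 tags at 10.6-fold, 29.2 kb upstream. Spry2, with no called peak near its TSS, had 3 CD71+Ter119-/lo Mtf2 peaks between 34.7 and 48.7 kb upstream, and 1 of them overlapped a Mtf2-null CD71+Ter119high H3K27me3 peak of 232 tags. In CD71+Ter119high cells Mtf2 peaks in this range lay at 7 of 37 genes (18.9%), beside 12.4% of all genes, with Ptch1 at 25.7-fold and 39.4 kb downstream of its nearest TSS. These distances do not tie a peak to a gene.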
